A study of Monodelphis domestica with 6 samples.

Results

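The transcriptomes of induced pluripotent stem cells (monoiPSCs) made from a marsupial, the opossum *Monodelphis domestica*, were compared between passage 25 (P25) and passage 15 (P15). The comparison used 4 of the 6 RNA-seq libraries of the series, chosen by their labels: the FD2M1 line and the LSD1 line, each at P15 and at P25. The other 2 libraries are of the parental skin fibroblasts and were not used. The study made the cells to describe how pluripotency is organised in a marsupial, and the passages bear on whether the lines keep their expression profile in culture. All 4 libraries are labelled wild type and treated by cellular reprogramming. Neonatal skin fibroblasts of the inbred strains FD2M1 and LSD1 were nucleofected with episomal OriP/EBNA plasmids that carry human OCT4, SOX2, NANOG, KLF4, LIN28 and cMYC, and the plasmids listed in the study also carry a p53 dominant-negative construct. Colonies were picked and grown without feeder cells on Matrigel in a medium with human LIF, heat-stable bFGF and the ROCK inhibitor Y27632. Each group is therefore 2 libraries, 1 per line, and the labels do not say whether the P15 and P25 cells of a line descend from the same picked colony. A p-value over these libraries measures only the spread between them.

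Pluripotent stem cells renew themselves in culture while keeping the capacity to form the germ layers, and they hold this state through a network of transcription factors around POU5F1, SOX2 and NANOG. Signals of the FGF, NODAL, BMP and WNT families decide whether such cells stay undifferentiated or begin to form primitive streak, endoderm, mesoderm or neural tissue, so cultures of them often contain cells that have started on one of these routes. Passaging selects for cells that attach, survive and divide well, and this is why expression at an early and a late passage is commonly compared.

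The deposited counts summed to 31839325 and 32760646 per library at P15 and to 28684754 and 35564261 at P25, in FD2M1 and LSD1 in that order. Levels are given as the normalised read count (NRC), the count after the DESeq normalisation of the authors, which is not divided by gene length, so levels are compared between libraries and not between genes. A count of 3 corresponded to an NRC of 1.55 to 1.88. Where 2 values are given for a passage, the first is of FD2M1 and the second of LSD1. The iPSC label was checked on 8 markers, and POU5F1, SOX2, NANOG, LIN28A, SALL4, DNMT3B, PODXL and TDGF1 were all detected in all 4 libraries, the lowest value being an NRC of 149.9 for DNMT3B in LSD1 at P15. Transcripts that mark other cell types were present as well. The fibroblast and matrix list of 22 tested genes summed to an NRC of 38818 and 41679 at P15 and of 47709 and 45776 at P25, although ACTA2, TWIST2 and COL6A3 were at or near 0 throughout. Genes of skeletal muscle, neurons and neural crest were also measured in every library and are described where they moved with passage. In these bulk libraries fewer cells of a type and less RNA per cell cannot be told apart.

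Of 12987 genes with a mean NRC of at least 20, none passed a Benjamini-Hochberg adjusted p of 0.05 with a 2-fold change in edgeR's quasi-likelihood test with line as covariate, so that 0% were differentially expressed (DE). The lowest adjusted p was 0.174, shared by 16 genes. At an unadjusted p under 0.05, 669 genes (5.15%) were higher and 530 (4.08%) lower at P25. DESeq2 called 98 genes higher (0.785%) and 32 lower (0.256%) of the 12483 to which it gave an adjusted p. Limma on the log2 values called 0. It also recovered 0 of 200 genes changed 4-fold in simulated counts, so its 0 does not show that no gene differs. An exact permutation test of 2 libraries against 2 that ignores line cannot give a two-sided p below 0.333. One that keeps the passages paired by line has fewer arrangements and a higher limit. The values below therefore describe these 4 libraries.

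Within a line the log2 change is log2 of the ratio of NRC + 5 at P25 to NRC + 5 at P15, from 1 library each and without a test. In FD2M1, 451 genes (3.47%) were at least 2-fold higher and 312 (2.4%) at least 2-fold lower at P25. In LSD1, 809 genes (6.23%) were at least 2-fold higher and 280 (2.16%) lower. The standard deviation of the log2 change over genes was 0.499 in FD2M1 and 0.586 in LSD1, beside 0.549 between the lines at P15 and 0.619 between them at P25. Passages of a line thus lay about as far apart as the lines did. Over all tested genes the changes of the lines went the same way for 58.6%, and across genes, which are not independent replicates, Pearson's r was 0.183 and Spearman's rank correlation 0.205. All 4 libraries enter this relation once.

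At least 2-fold higher in both lines were 134 genes (1.03%), and at least 2-fold lower in both were 43 (0.331%). In opposite directions, 66 genes (0.508%) were at least 2-fold lower in FD2M1 and higher in LSD1, and 14 (0.108%) were the reverse. At any size, 29.6% of all tested genes were higher in both lines and 28.9% lower in both. Both P25 libraries were above both P15 libraries for 2368 of all tested genes (18.2%) and below both for 2058 (15.8%). The passages did not overlap for 123 of the 134 genes and for 36 of the 43. Choosing genes by a like change in both lines favours such separation, so for genes of these sets non-overlap is no further support. The median NRC of the 134 genes was 38.2 and 51.5 at P15 and 128 and 168 at P25. The 43 genes went from medians of 177 and 87.6 to 68.1 and 24.2. Just inside the limit stood CER1 and AGTR1, and just outside it C1H10orf10 (DEPP1) and C2H17orf62. C1H10orf10 had changes of 1.00 and 1.93, and C2H17orf62 of -0.99 and -1.15.

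**Figure D1:**
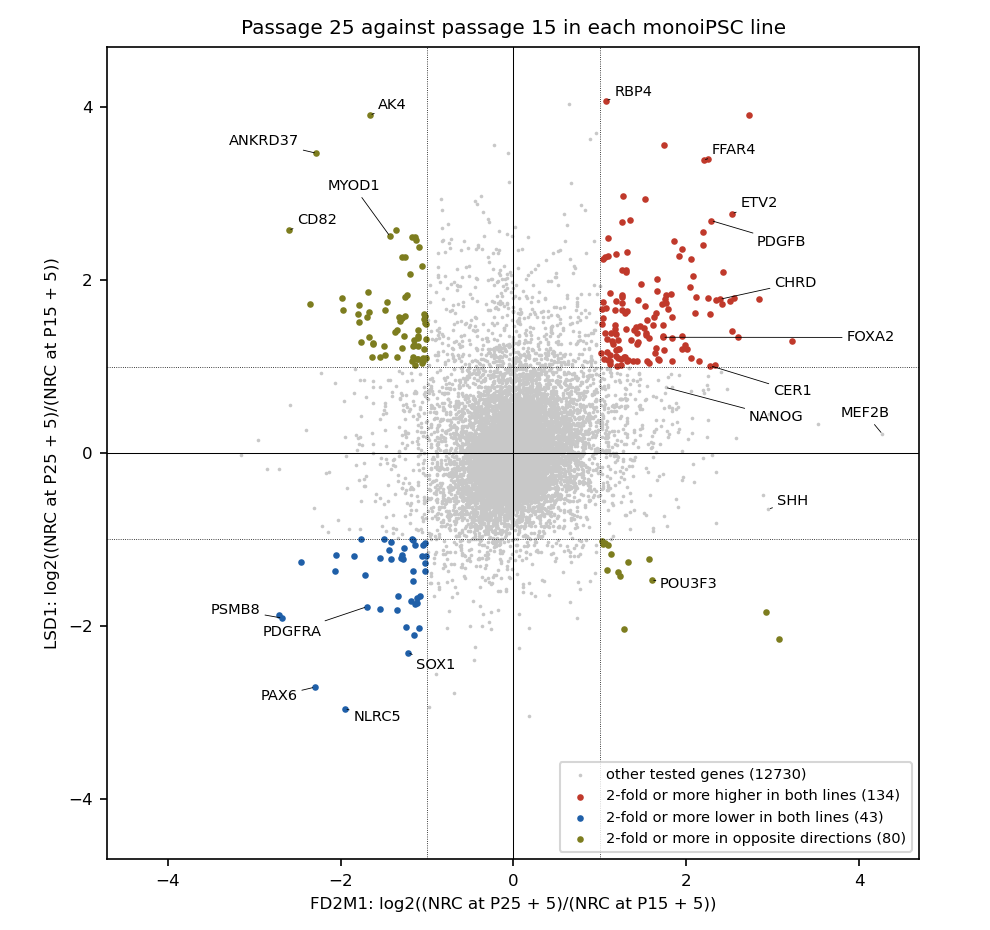
Log2 change from passage 15 to passage 25 of each of the 12987 tested genes in FD2M1 (x axis) and in LSD1 (y axis), as log2 of the ratio of NRC + 5; each point is a gene, and dotted lines mark a 2-fold change. Red, blue and olive points are the 134 genes higher in both lines, the 43 lower in both and the 80 in opposite directions, and most genes lie near the centre with a weak diagonal trend (r = 0.183).

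Genes higher in both lines were ranked by the smaller of the changes in the lines. Among named genes with a mean NRC of at least 100 at the higher passage, ETV2, PDGFB, FFAR4 and GAD1 led. ETV2, an ETS factor that specifies blood and endothelial precursors, was at an NRC of 17.3 and 138 at P15 and of 124 and 965 at P25. The passages overlapped for ETV2, because LSD1 at P15 stood above FD2M1 at P25, but the change was alike in the lines, at 2.53 and 2.77. Its fitted log2 fold change was 2.81 with a standard error (SE) of 0.24, and its edgeR adjusted p was 0.174, against a DESeq2 adjusted p of 1.09e-10. With 1 library left out and no term for line, so that the gap between the lines enters, the fold change of ETV2 was 0.66 without LSD1 at P25, 3.59 without FD2M1 at P25 and 4.95 without LSD1 at P15. PDGFB, a growth factor that acts on mesenchymal cells through PDGF receptors, went from 22.8 and 50.8 to 131 and 355. FFAR4, a receptor for long-chain fatty acids, went from 25.2 and 31.6 to 134 and 377. GAD1, the enzyme that makes GABA from glutamate, went from 99.3 and 117 to 472 and 639. The passages did not overlap for PDGFB, FFAR4 or GAD1, and the fitted log2 fold change of GAD1 was 2.35 (SE 0.22, edgeR adjusted p = 0.174).

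Changes of the remaining 8 lay between 1.81 and 2.56. MST1R, a receptor tyrosine kinase of epithelial cells, was at 75.9 and 142 at P15 and at 365 and 862 at P25, a log2 fold change of 2.43 (SE 0.22, edgeR adjusted p = 0.174). PLS1, an actin-bundling protein of microvilli, was at 65.6 and 176 at P15 and at 293 and 745 at P25. ENPEP, a membrane aminopeptidase, was at 14.5 and 29.5 at P15 and at 75.9 and 159 at P25. In all 3 the lines differed in level and the change was of like size in each. ARHGDIB, an inhibitor of small GTPases, HOPX, a small homeodomain protein, and the tight-junction gene CLDN10 had changes between 1.92 and 2.43 in the lines. TTLL6, which adds glutamate chains to ciliary tubulin, had changes of 1.82 and 1.84, and SOST, an extracellular WNT inhibitor, of 2.11 and 1.81. FLT1, a VEGF receptor, had one of the lowest p-values of the fit and was at 222 and 328 at P15 and at 712 and 1220.1 at P25. Its log2 fold change was 1.78 (SE 0.18, edgeR adjusted p = 0.174), and its passages did not overlap.

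**Figure D2:**
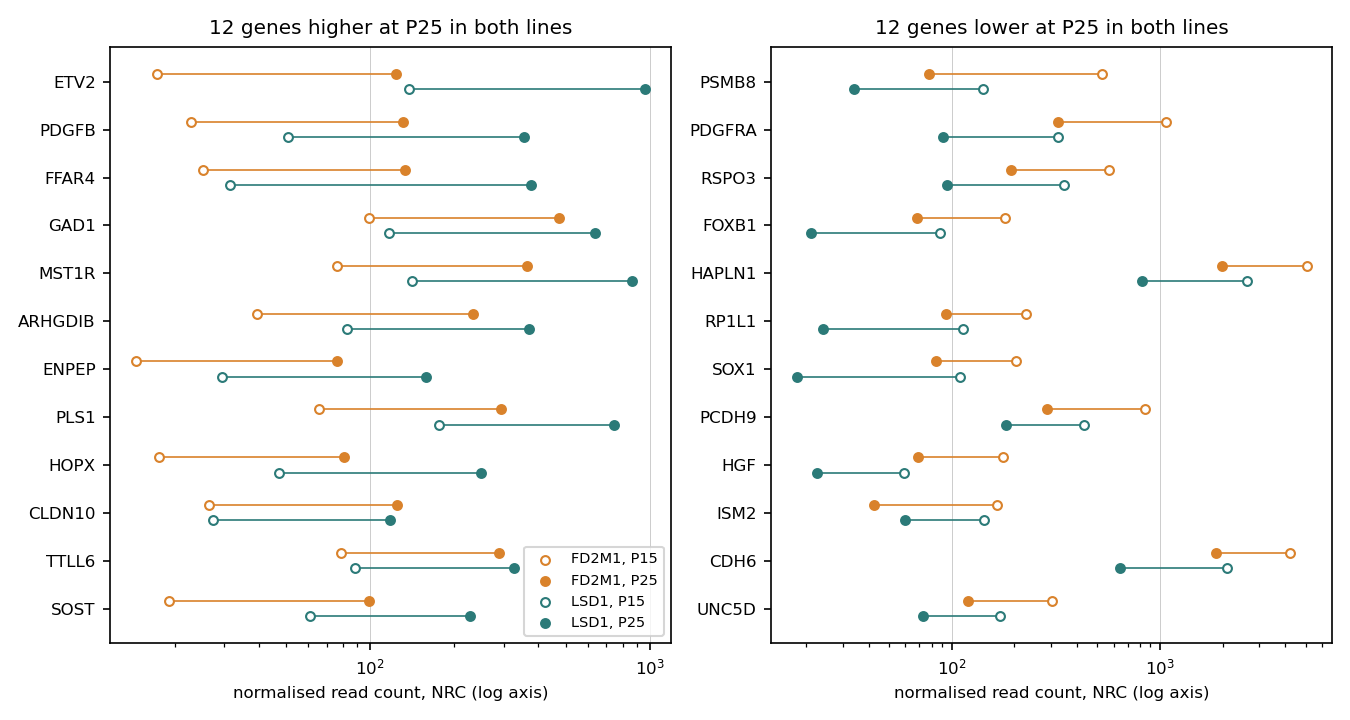
NRC on a log axis of the 12 genes highest (left) and the 12 lowest (right) at passage 25 in both lines, chosen by these values; open circles are P15, filled circles P25, orange FD2M1 and green LSD1, 1 library each. Every line segment on the left runs to the right and every one on the right runs to the left, and for ETV2 the green open circle lies to the right of the orange filled one.

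FOXA2, CHRD and CER1, genes of the node and early endoderm, were at least 2-fold higher at P25 in both lines. FOXA2, a forkhead factor of endoderm, node and floor plate, was at 1118.0 and 1511 at P15 and at 3719 and 3820.0 at P25. CHRD, a secreted BMP antagonist of the organizer, was at 209 and 285 at P15 and at 1113 and 990.0 at P25. CER1, an antagonist of NODAL, BMP and WNT made by anterior endoderm, was at 1096 and 2600.1 at P15 and at 5354 and 5231 at P25. The passages did not overlap for any of the 3. By ratio, the P25 values of the lines were closer to each other than the P15 values were in all 3. Log2 fold changes were 1.53 for FOXA2 (SE 0.17, edgeR adjusted p = 0.174), 2.10 for CHRD (SE 0.23, edgeR adjusted p = 0.174) and 1.64 for CER1 (SE 0.33, edgeR adjusted p = 0.367).

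Of 9 tested genes of the endoderm and hypoblast list, 1 was at least 2-fold higher and 1 lower in both lines, beside 1.03% and 0.331% of all tested genes. At any size 6 were higher in both, beside 29.6% of all tested genes. The medians were 0.80 and 0.53, beside -0.005 and 0.013 over all tested genes. The basement membrane genes of that list were among those higher, with COL4A1 at 3699 and 3851 at P15 and at 7037 and 6331 at P25. COL4A2 had changes of 1.04 and 0.93 and LAMB1, a laminin chain, of 0.80 and 0.67, whereas the laminin chain LAMA1 had 0.02 and -0.35. GATA6, a hypoblast factor, was below the level for testing, at an NRC of 2.53 and 4.21 at P15 and of 28.3 and 17.0 at P25. The 1 lower member is PDGFRA, described below. The list of streak and mesendoderm genes, which holds CER1, had medians of 0.10 and -1.0. TBXT, the defining streak factor, which the files name T, was at an NRC below 9 in every library.

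A list of node and notochord genes was put together after the values had been seen, so its count describes a choice and is no support. Of its 12 tested genes 6 were at least 2-fold higher in both lines, beside 1.03% of all tested genes. They include NKX6-1, FOXJ1 and LOC103103298 (CIROP) besides the 3 above. NKX6-1, a homeodomain factor of the ventral neural tube, was at 53.1 and 77.6 at P15 and at 224 and 192 at P25. FOXJ1, the regulator of motile cilia, was at 29.2 and 48.0 at P15 and at 102 and 119 at P25. CIROP, a ciliated left-right organizer protein, was at 48.2 and 61.1 at P15 and at 122 and 216 at P25. These 3 genes did not overlap between passages. SHH differed, at 171 and 1470 at P15 and at 1360 and 935 at P25, so that it was higher at P25 in FD2M1 alone. A motile cilia list of 18 tested genes was also chosen after the values had been seen. Of these, TTLL6, FOXJ1, KIF6, PPIL6, CFAP53 and ENKUR were at least 2-fold higher in both lines, beside 1.03% of all tested genes. Ciliary dynein DNAH5 had changes of 0.34 and 0.67 and DNAH9 of -1.73 and -0.30, so the list did not move as a whole.

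KRT18, GATA3 and DSP, genes of epithelia and trophectoderm, were at least 2-fold higher at P25 in both lines. KRT18, a keratin of simple epithelia, was at 514 and 775 at P15 and at 1532 and 1595 at P25, a log2 fold change of 1.30 (SE 0.20, edgeR adjusted p = 0.267). GATA3, a factor of trophectoderm and surface ectoderm, was at 8.79 and 12.6 at P15 and at 54.0 and 49.2 at P25, near the lower limit of testing. DSP, the desmosomal plaque protein, was at 24.97 and 26.03 at P15 and at 60.95 and 71.28 at P25. In each of them both P25 libraries were above both P15 libraries. Of 9 tested genes of the trophectoderm list 3 were at least 2-fold higher in both lines (KRT18, ENPEP and GATA3) and 0 lower, beside 1.03% and 0.331% of all tested genes, with medians of 0.42 and 0.49. CDX2, which the study also treats as a trophectoderm marker, is not on that list. It hardly changed in FD2M1 and was lower at P25 in LSD1, as given below. Of 8 tested surface ectoderm and keratin genes 2 were (KRT18 and DSP) and 0 were lower, against the same background, with medians of 0.94 and 0.46. The cadherin CDH1, also on that list, had changes of 0.36 and -0.42. Of 20 tested adhesion genes 8 were higher and 4 lower in both lines, beside 29.6% and 28.9% of all tested genes, with medians of 0.35 and -0.11.

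Embryo cell-type lists from an earlier single-cell study, which the study used, moved little as a whole. Of the 239 tested trophectoderm (TE) genes 4 were at least 2-fold higher in both lines and 0 lower, beside 1.03% and 0.331% of all tested genes. The medians were 0.07 and 0.09. The 4 were CPM, ANXA4, CDA and LOC100013604. CPM, a membrane carboxypeptidase, was at 1508 and 1079 at P15 and at 3112 and 3647 at P25, a log2 fold change of 1.40 (SE 0.21, edgeR adjusted p = 0.267). ANXA4, a calcium-dependent phospholipid-binding protein, was at 191 and 112 at P15 and at 396 and 370 at P25, and CDA, which deaminates cytidine, at 115 and 167 and at 491 and 363. The passages overlapped for none of the 3. Of 398 tested epiblast (EPI) genes 0 were at least 2-fold higher and 1, PSMB8, lower in both lines, with medians of 0.04 and 0.09. Of 156 tested hypoblast genes 1 (CDA) was higher and 0 lower, with medians of -0.04 and 0.11. The same 1.03% and 0.331% of all tested genes stand beside the EPI and hypoblast counts.

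The matricellular genes CTGF (CCN2) and CYR61 (CCN1), which respond to adhesion and to YAP activity, were among the most regular differences of the comparison. CTGF was at 637 and 822 at P15 and at 1977 and 2453 at P25. CYR61 was at 466 and 568 at P15 and at 1563 and 1597 at P25. Their log2 fold changes were 1.60 (SE 0.15) and 1.61 (SE 0.17), both at an edgeR adjusted p of 0.174, and the passages were well apart. THBS1 and FHL2, singled out after their values had been seen, showed the same, with THBS1 at 4050.2 and 4555 at P15 and at 9404 and 11330 at P25. ANKRD1, a muscle and YAP-response gene, was at 31.4 and 157 at P15 and at 82.4 and 1029 at P25, so its passages overlapped, and its fitted log2 fold change was -0.21 without the LSD1 library at P25, against 2.11 with it. A YAP target list of 20 tested genes was put together after the values had been seen. CTGF, CYR61 and ANKRD1 were its 3 members at least 2-fold higher in both lines, and its medians were -0.06 and 0.10. Of 15 tested contractile genes the same 3 were, with medians of 0.38 and 0.64. Among all tested genes the share was 1.03%.

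Immediate early genes, which cells switch on within minutes of a growth or stress signal, were mostly higher at P25. Of 19 tested, 15 were higher in both lines and 0 lower in both, beside 29.6% and 28.9% of all tested genes. At least 2-fold higher in both were 5, beside 1.03% of all tested genes. The medians were 0.24 in FD2M1 and 0.90 in LSD1. EGR1, a zinc finger factor downstream of ERK, was at 768 and 818 at P15 and at 1759 and 4052 at P25. ZFP36, which destabilises cytokine mRNAs, was at 1172 and 939.9 at P15 and at 2488 and 2353 at P25. NR4A3, an orphan nuclear receptor, was at 179 and 137 at P15 and at 647 and 354 at P25. FOSB and CYR61 are the remaining 2. Fitted log2 fold changes were 1.75 for EGR1 (SE 0.29, edgeR adjusted p = 0.292) and 1.20 for ZFP36 (SE 0.15, edgeR adjusted p = 0.237). FOS, in contrast, had changes of -0.26 and 0.90 and JUN of -0.19 and 1.51.

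Among named genes lower at P25 in both lines with a mean NRC of at least 100 at P15, PSMB8 and PDGFRA led by the smaller of the changes in the lines. PSMB8, an immunoproteasome subunit, was at 524 and 141 at P15 and at 77.4 and 33.8 at P25, a log2 fold change of -2.42 (SE 0.32, edgeR adjusted p = 0.254). PDGFRA, a receptor for PDGF on mesenchyme and primitive endoderm, was at 1068 and 324 at P15 and at 325 and 91.0 at P25, a log2 fold change of -1.77 (SE 0.19, edgeR adjusted p = 0.174). For PDGFRA, FD2M1 at P25 and LSD1 at P15 were at nearly the same level, so the passages overlapped while the changes, -1.70 and -1.78, were alike. With 1 library left out its fold change was -0.65 without FD2M1 at P15, -1.09 without LSD1 at P25 and -2.96 without FD2M1 at P25. RSPO3, a secreted amplifier of WNT signals, was at 572 and 346 at P15 and at 192 and 95.4 at P25. HAPLN1, which links hyaluronan to proteoglycans, was at 5053 and 2613 at P15 and at 1991 and 821 at P25, with a log2 fold change of -1.51 (SE 0.16, edgeR adjusted p = 0.174). CDH6, a cadherin of neural crest and kidney precursors, was at 4230 and 2109 at P15 and at 1857 and 643 at P25. PSMB8, RSPO3, HAPLN1 and CDH6 did not overlap between passages. The other lower genes of this set were FOXB1, RP1L1, SOX1, PCDH9, HGF, ISM2 and UNC5D, and their changes lay between -2.31 and -1.18.

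The 43 genes lower in both lines held 3 of the neural progenitor list and 1 of the neural crest list. PAX6, a master factor of eye and forebrain, was at 140 and 41.3 at P15 and at 24.5 and 2.06 at P25. SOX1, an early neural plate factor, was at 203 and 109 at P15 and at 84.1 and 18.0 at P25. EMX2, a forebrain and urogenital factor, was at 510 and 143 at P15 and at 209 and 64.0 at P25. The passages did not overlap for PAX6 or SOX1, whereas for EMX2 LSD1 at P15 was below FD2M1 at P25. Of 15 tested neural progenitor genes these 3 were at least 2-fold lower in both lines and 0 higher, beside 0.331% and 1.03% of all tested genes. The medians were -0.23 and -0.11. The rest of the list did not share this, as POU3F2 had changes of 0.80 and 0.62 and the stem cell filament NES of -0.23 and 0.69.

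TFAP2B, an AP-2 factor of neural crest and kidney, was at 16007 and 13231 at P15 and at 7176 and 6566 at P25. Its log2 fold change was -1.09 (SE 0.13, edgeR adjusted p = 0.237). Of 14 tested neural crest and melanocyte genes 8 were lower in both lines and 2 higher, beside 28.9% lower in both among all tested genes, but only TFAP2B was so by at least 2-fold, and the medians were -0.59 and -0.06. EDNRB, the endothelin receptor of migrating crest, was at 1380.0 and 1299.9 at P15 and at 706 and 674 at P25. PAX3, shared with muscle precursors, was at 167 and 307 at P15 and at 89.8 and 102 at P25. DCX (LOC100012526), a microtubule protein of migrating neurons that belongs to the neuronal list, had changes of -1.06 and -0.91. EDNRB, PAX3 and DCX were picked after their values had been seen. In all 3 both P25 libraries were below both P15 libraries, as for 15.8% of all tested genes.

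Some antigen presentation genes were among the lowest ratios. PSMB9, a further immunoproteasome subunit, was at 67.4 and 16.8 at P15 and at 8.17 and 4.12 at P25. NLRC5, the transactivator of MHC class I genes, was at 112 and 77.9 at P15 and at 25.1 and 5.65 at P25. B2M, the light chain of MHC class I, was at 3091 and 3497 at P15 and at 1676 and 2427 at P25. All 3, like PSMB8, did not overlap between passages, and PSMB9 at P25 was at a few counts. An MHC class I list of 13 tested genes was put together after the values had been seen, so its count is no support. NLRC5, PSMB8 and PSMB9 were at least 2-fold lower in both lines and 0 were higher, beside 0.331% and 1.03% of all tested genes. The medians were -0.35 and -0.14. The summed NRC of the list was 48830 and 49764 at P15 and 49708 and 47908 at P25. TAPBP had changes of 0.06 and 0.20 and PSMB10 of -0.35 and 0.22. Of 13 tested interferon and innate genes 6 were lower in both lines and 1 higher, beside 28.9% and 29.6% of all tested genes. The interferon response gene IFI6 had changes of 0.31 and 0.68, so interferon targets did not all follow PSMB8.

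All but GDF3 of the core pluripotency genes found in the files could be tested. Of these 14 members, 0 were at least 2-fold apart the same way in both lines, and the medians were 0.14 and -0.08. POU5F1 was at 218 and 224 at P15 and at 228 and 300 at P25. Its relative POU5F3 (LOC100022539), which marsupials have kept beside it, was at 2459 and 2806 at P15 and at 2522 and 2793 at P25. SOX2 was at 2649 and 4088 at P15 and at 3438 and 3281 at P25. Fitted log2 fold changes of these 3 genes were 0.24 (SE 0.25), 0.01 (SE 0.14) and 0.02 (SE 0.21), with edgeR adjusted p of 0.775, 0.988 and 0.981, and for SOX2 the sign differed between the lines.

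NANOG, the homeobox factor that stabilises the pluripotent state, stood out from the rest of this list. It was at 280 and 858 at P15 and at 962 and 1456 at P25, so that both P25 libraries were above both P15 libraries. Its log2 fold change was 1.26 (SE 0.28), with an edgeR adjusted p of 0.398 and a DESeq2 adjusted p of 0.00509, and it was 0.48 without FD2M1 at P15, 2.10 without LSD1 at P15 and 0.75 without LSD1 at P25. The RNA-binding LIN28B was at 2150.2 and 1089 at P15 and at 1508 and 533 at P25, and TRIM71, which like LIN28B belongs to the let-7 pathway, at 2155 and 1206 and at 1661 and 702. For both LSD1 was the lower line at each passage, and SALL4, with changes of -0.29 and -0.55, was likewise lower in both lines. LIN28A, PODXL and the NODAL co-receptor TDGF1 had opposite signs in the lines, with LIN28A at 0.32 and -0.97 and TDGF1 at 1.41 and -0.05. DNMT3B, TFAP2C, PRDM14 and MYC had changes between -0.48 and 0.67. GDF3 was at 0 counts in all 4 libraries, which allows an NRC of up to 1.88.

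**Figure D3:**
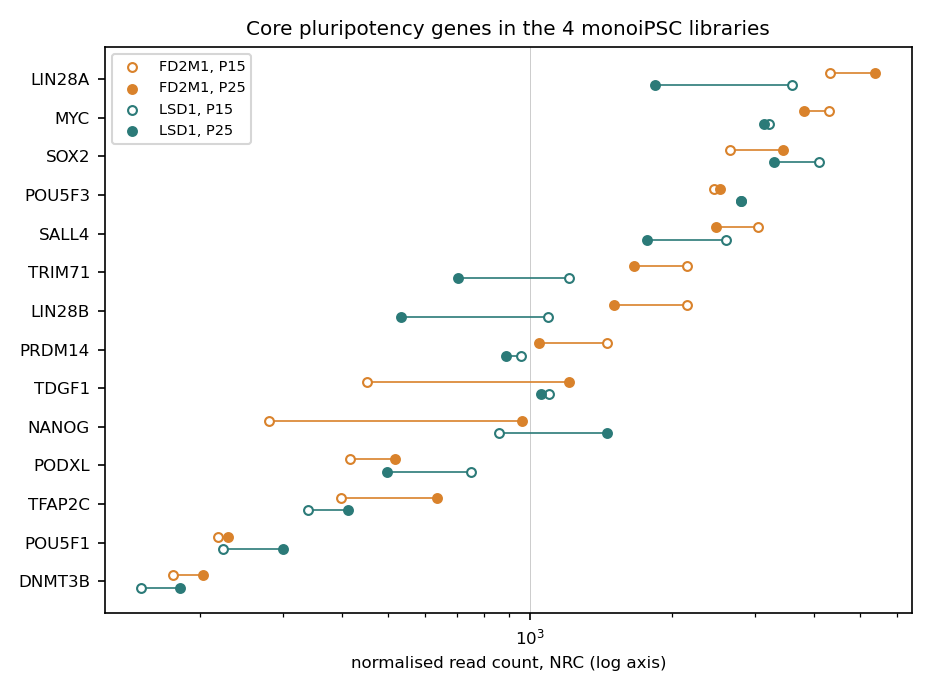
NRC on a log axis of the 14 tested core pluripotency genes, ordered by mean level; open circles are P15, filled circles P25, orange FD2M1 and green LSD1, 1 library each. POU5F3 and MYC hardly move, NANOG moves to the right in both lines, and LIN28B, TRIM71 and SALL4 move to the left in both.

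Genes of the naive and primed states, the earlier and later forms of pluripotency, did not shift together. Of 12 tested naive-state genes LIFR alone was at least 2-fold apart in both lines. LIFR, the receptor for LIF, which the medium contains, was at 953 and 391 at P15 and at 347 and 177 at P25, with a log2 fold change of -1.31 (SE 0.20), an edgeR adjusted p of 0.267 and a DESeq2 adjusted p of 0.00225. Its partner IL6ST had changes of 0.05 and -0.42 and STAT3, which acts below them, of -0.16 and 0.08. LIF itself, singled out after its values had been seen, was at 17.6 and 21.1 at P15 and at 60.7 and 63.6 at P25. Of 19 tested primed-state genes 0 were at least 2-fold apart the same way in both lines, and the medians were -0.13 and 0.02.

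WNT pathway genes tended to be lower at P25. Of 30 tested, 18 were lower in both lines and 2 higher, beside 28.9% and 29.6% of all tested genes, 10 had an unadjusted p under 0.05 with a lower level at P25 and 1 with a higher one, beside 4.08% and 5.15%, and none passed the adjusted threshold. The medians were -0.14 in FD2M1 and -0.50 in LSD1. Among receptors FZD10 was at 1189.5 and 1108 at P15 and at 560 and 349 at P25, with a log2 fold change of -1.38 (SE 0.21, edgeR adjusted p = 0.267). Among targets and feedback inhibitors AXIN2 was at 747 and 706 at P15 and at 453 and 288 at P25, and NKD1 had changes of -0.84 and -0.80. Secreted inhibitor FRZB was at 1431 and 1111 at P15 and at 847 and 310 at P25. All 4 did not overlap between passages, and the R-spondin receptor LGR5 went the other way, from 47.59 and 40.02 to 133 and 117. The ligand WNT8A had changes of -0.09 and -1.60 and the inhibitor DKK4 of 0.73 and -1.91. Of the posterior factors that WNT sustains, CDX1 was at 91.3 and 85.1 at P15 and at 38.7 and 21.9 at P25, and CDX2 was at 3928 and 2662 at P15 and at 3991 and 1124 at P25, so CDX2 was lower in LSD1 alone.

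Other signalling lists had medians nearer 0. Of 28 tested genes of the NODAL, TGF-beta and BMP list 8 were higher and 10 lower in both lines, beside 29.6% and 28.9% of all tested genes. CHRD was the only member at least 2-fold apart in both, and the medians were -0.02 and -0.07. The FGF and ERK list of 20 tested genes had medians of -0.05 and 0.09 with EGR1 as its 1 member at least 2-fold higher in both, and the NOTCH list of 19 had -0.08 and 0.06. Of 12 tested retinoic acid genes 1 was higher and 6 lower in both lines, beside the same 29.6% and 28.9%, with medians of -0.17 and -0.10. In the growth factor list of 18, PDGFB was higher and PDGFRA lower, so that a ligand and a receptor of the same system lay in opposite directions. PDGFA had changes of 0.23 and 0.60 and PDGFRB of 0.59 and 0.02. IGFBP5, an IGF-binding protein, was at 10839 and 10991 at P15 and at 20598 and 21362 at P25.

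**Figure D4:**
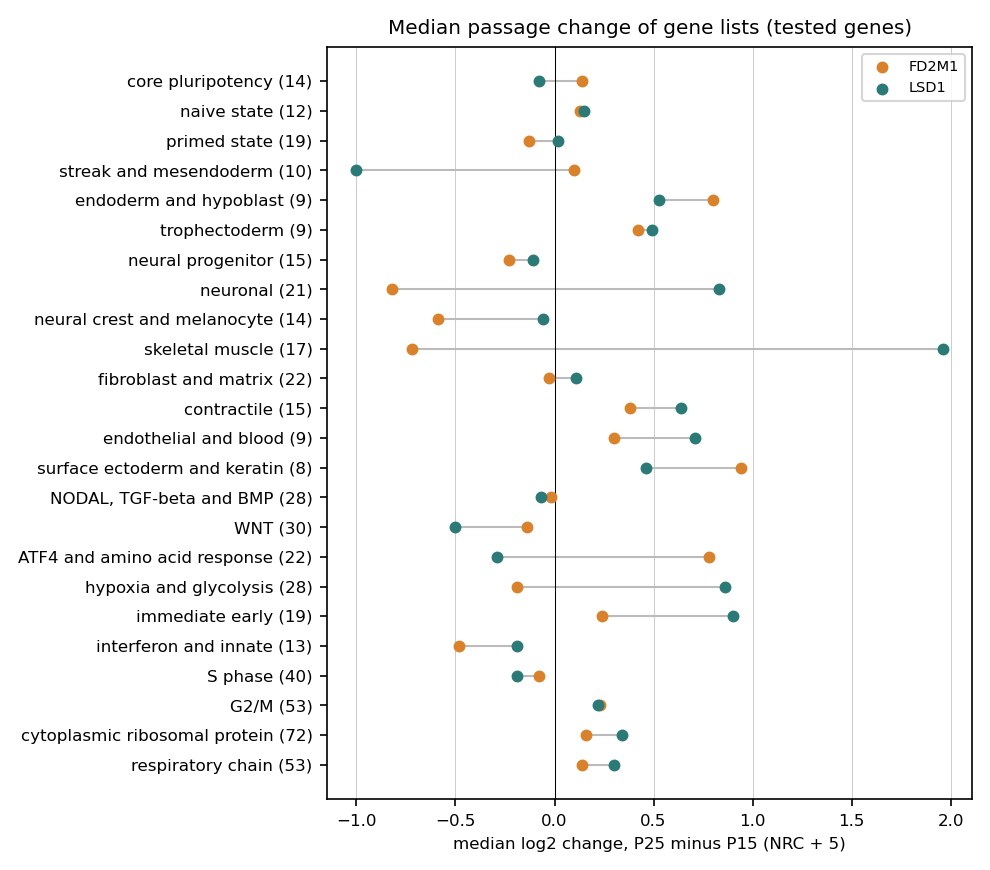
Median log2 change from passage 15 to passage 25 of the tested genes of 24 gene lists (number of genes in parentheses) in FD2M1 (orange) and LSD1 (green). The medians of the skeletal muscle, neuronal, hypoxia and ATF4 lists lie on opposite sides of 0 in the lines, those of the core pluripotency list near 0, and over all tested genes they were -0.005 and 0.013.

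Skeletal muscle, neuronal, hypoxia and ATF4 genes mostly differed between passages in opposite directions in the lines. With 1 library per line and passage the difference between the lines was not tested. Over all tested genes, 58.6% changed the same way in both lines. At least 2-fold higher at P25 were 6.23% in LSD1 and 3.47% in FD2M1, and 2.4% were at least 2-fold lower in FD2M1. The skeletal muscle list was the clearest case. Of 17 tested genes 14 were lower at P25 in FD2M1 and higher in LSD1, 13 were at least 2-fold higher in LSD1 and 6 at least 2-fold lower in FD2M1, and the medians were -0.72 and 1.96. The summed NRC of the list was 11520 and 13441 at P15 and 6878 and 46315 at P25, so the LSD1 library at P25 stood apart from the other 3. MYOD1, the myogenic determination factor, was at 103 and 99.4 at P15 and at 35.1 and 591 at P25. ACTC1, an early sarcomeric actin, was at 1391 and 1131 at P15 and at 630 and 6418 at P25, and ACTA1, the skeletal actin, at 1118 and 1765 and at 754 and 9645. MYOG, the factor of terminal differentiation, was less apart, at 1527 and 4135 at P15 and at 985 and 5549 at P25, and PAX3 was lower in both lines as described above. TMEM8C (MYMK), needed for myoblast fusion, had changes of -1.80 and 1.61.

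Neuronal genes followed the same pattern at smaller size. Of 21 tested, 13 were lower in FD2M1 and higher in LSD1, with medians of -0.82 and 0.83. A further 6 were lower in both and 2 higher in both, beside 28.9% and 29.6% of all tested genes. DCX, given above, was lower in both lines. TUBB3, the neuronal tubulin, was at 3171 and 1438 at P15 and at 1120.5 and 3414 at P25. STMN2 and MAP2, which act on axonal and dendritic microtubules, had changes of -1.03 and 0.76 and of -0.98 and 1.02. The summed NRC was 21096 and 13122 at P15 and 11084 and 20705 at P25, so that no library stood apart and the order of the lines was exchanged. GAD1 was at least 2-fold higher in both lines, as given above.

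Genes of hypoxia and glycolysis were higher at P25 in LSD1. Of 28 tested, 13 were at least 2-fold higher in LSD1 and 0 in FD2M1, beside 6.23% and 3.47% of all tested genes. Of the 28, 17 were lower in FD2M1 and higher in LSD1, and the medians were -0.19 and 0.86. The glycolytic enzyme ALDOA was at 12759 and 9529 at P15 and at 11588 and 34336 at P25. PGK1, a later enzyme of the path, was at 29315 and 24913 at P15 and at 26404 and 64288 at P25. CA9, a carbonic anhydrase induced by hypoxia, was at 135 and 34.9 at P15 and at 114 and 466 at P25. In each of them LSD1 at P15 was the lowest library and LSD1 at P25 the highest. ANKRD37 and AK4, also hypoxia-responsive, had changes of -2.28 and 3.47 and of -1.66 and 3.91. VEGFA, a classical hypoxia target, did not follow, with 0.60 and -0.03. ALDOA is also abundant in muscle, and how the muscle genes bear on this list was not tested.

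Genes of the ATF4 pathway, which answers to amino acid shortage and stress, went the other way. Of 22 tested, 16 were higher at P25 in FD2M1 and lower in LSD1, and the medians were 0.78 and -0.29. Of the 22, 8 were at least 2-fold higher in FD2M1 and 0 in LSD1, beside 3.47% and 6.23% of all tested genes. The summed NRC was 53092 and 143911 at P15 and 95908 and 123410 at P25, so that FD2M1 at P15 was the low library. MTHFD2, a mitochondrial folate enzyme, was at 2586 and 13211 at P15 and at 8610 and 11161 at P25. ATF5, an ATF4 target, was at 1523 and 12635 at P15 and at 5893 and 10213 at P25, and the serine pathway enzyme PSPH had changes of 1.31 and -0.39. ATF3 and DDIT4, which other stresses also induce, were higher in both lines, at 1.35 and 0.80 and at 1.07 and 0.66. ATF4 mRNA itself had changes of 0.29 and -0.13.

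**Figure D5:**
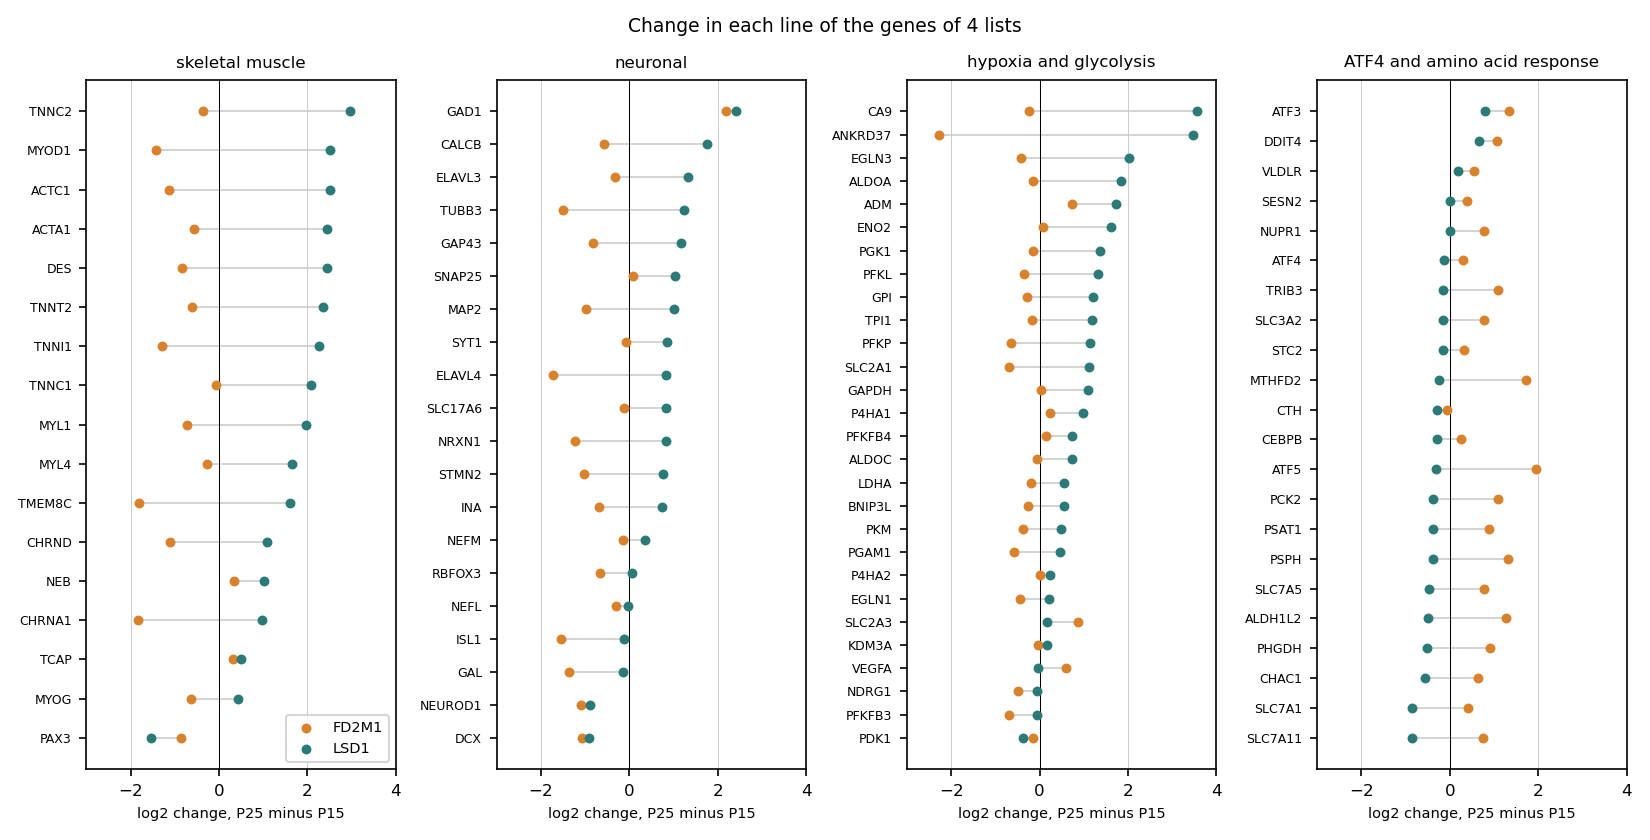
Log2 change from passage 15 to passage 25 of tested genes of 4 lists in FD2M1 (orange) and LSD1 (green), 1 library per line and passage, ordered by the change in LSD1. In the skeletal muscle panel 14 of 17 genes have the orange point left of 0 and the green point right of it, and in the ATF4 panel 16 of 22 genes have the reverse. Over all tested genes 58.6% changed the same way in both lines.

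The single genes of the next sentence were chosen for large opposite changes in the lines. Their division follows from that choice and is no further support. Besides CD82, ANKRD37, C7, AK4 and TMEM8C, which were lower in FD2M1 and higher in LSD1, the genes POU3F3, SLC16A11, ADM2 and ADCY1 were higher in FD2M1 and lower in LSD1. POU3F3, a neural POU factor, was at 74.8 and 180.3 at P15 and at 237 and 62.1 at P25. CD82, a tetraspanin, was at 78.6 and 102 at P15 and at 8.79 and 638 at P25. Within FD2M1 the highest ratios were those of MEF2B, SERPINF2, SHH, DSC1 and LCAT. MEF2B was at 3.37 in FD2M1 at P15, which is 6 counts, and at 156 to 255 in the other 3 libraries. SERPINF2, DSC1 and LCAT likewise had their low value in FD2M1 at P15 alone. The lowest in FD2M1, beside PSMB8, CD82 and ANKRD37, were OLIG3, at 576 at P15 and 84.1 at P25, and the choline transporter SLC5A7. Within LSD1 the highest were RBP4, AK4, CA9, ANKRD37 and SLN. RBP4, which carries retinol, was at 470 and 258 at P15 and at 993 and 4451 at P25, and SLN, a regulator of the muscle calcium pump, was at 70 to 110 in 3 libraries and at 1273 in LSD1 at P25. The lowest in LSD1 were UCMA, NKX1-2, TNFRSF11B, SOX1 and SLCO2A1, and NKX1-2, a factor of neuromesodermal progenitors, was at 546 and 460 at P15 and at 336 and 62.7 at P25.

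Genes for growth and division moved by small amounts. Of 72 tested cytoplasmic ribosomal protein genes 68 were higher in both lines, beside 29.6% of all tested genes, with medians of 0.16 and 0.34, 5 at an unadjusted p under 0.05 (beside 5.15%) and 0 at least 2-fold higher in both. Of 53 respiratory chain genes 42 were higher in both, with medians of 0.14 and 0.30 and 1 at such a p. Of 53 G2/M genes 35 were higher in both and 2 lower, with medians of 0.23 and 0.22 and 12 higher at an unadjusted p under 0.05. Of 40 S-phase genes 24 were lower in both, beside 28.9% of all tested genes, and 5 higher, with medians of -0.08 and -0.19. None of these genes passed the adjusted threshold. With TMM-scaled counts the median over all tested genes was 0.002 and -0.005 in place of -0.005 and 0.013. In the edgeR fit the median log2 fold change over all tested genes was 0.005 with TMM and -0.039 with library size alone. How much the medians of these lists depend on scaling by library size was not tested.

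Genes that maintain chromatin and telomeres differed little. The DNA methylation list of 15 tested genes had medians of -0.12 and 0.05, the Polycomb and Trithorax list of 28 had -0.02 and -0.01, and the telomere list of 16 had -0.13 and -0.12, with 0 members at least 2-fold apart the same way in both lines in any of the 3. The p53 and apoptosis list of 28 had medians of 0.21 and 0.05, and its target CDKN1A had changes of 0.28 and 0.03. Of 22 tested HOX genes HOXD10, at 30.3 and 6.84 at P15 and at 131 and 55.7 at P25, was the 1 at least 2-fold apart in both lines, while HOXA5 had changes of -0.75 and -0.77. By chromosome the median change lay between -0.025 and 0.035 in FD2M1 and between -0.013 and 0.086 in LSD1, the highest being that of the X chromosome in LSD1 over 334 genes.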

How the data were processed

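RNA-seq of 4 monoiPSC libraries was analysed. The 2 fibroblast columns of each table were not used. The authors aligned paired-end reads to MonDom5 with StrandNGS and deposited counts per RefSeq gene. Of the values above 0, 85.463% were fractional (tolerance 1e-06), so these deposited raw counts were treated as estimated counts and rounded. A further deposited table holds log2 values of DESeq-normalised counts, and NRC is 2 to that power, set to 0 where the log2 value was at or below 0. The members and gene lists were chosen with earlier results of these data known, and 4 lists were added after values had been seen.

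Genes with a mean NRC of at least 20 over the 4 libraries were tested with edgeR 4.0.16 (R 4.3.3, glmQLFit and glmQLFTest, TMM scaling, line as covariate, 1 residual degree of freedom) and a gene was called DE where the Benjamini-Hochberg adjusted p did not exceed 0.05 and the levels were at least 2-fold apart. The SE is the log2 fold change divided by the square root of F. DESeq2 1.42.0 and limma 3.58.1 were alternatives. On simulated counts with 200 of 12987 genes changed 4-fold for this comparison, edgeR recovered 187 of them beside 27 calls among unchanged genes. DESeq2 recovered 181 beside 15 such calls, and limma recovered 0 beside 0. On the deposited counts edgeR called 0 genes, with a lowest adjusted p of 0.174. Whether the drawn counts vary between the lines as the 4 libraries do was not tested. The recovered numbers therefore do not say how many changed genes would be found in these libraries. A pseudocount of 5 NRC was used for changes within a line.

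Line pairs the passages, since both libraries of a pair come from the same line. The labels give no replicate number, and libraries are named by line. Named genes are the 12 highest and 12 lowest in both lines with a mean NRC of at least 100 at the higher passage and no LOC number, all core pluripotency genes, list members at least 2-fold apart in both lines, the 5 largest opposite changes each way, the 5 lowest p each way and the 5 extremes each way in each line. Other genes named as members of a list or singled out were chosen after their values were seen. Gene symbols were matched to RefSeq mMonDom1.pri for 12529 of 12987 tested genes. That is another assembly, so no coordinates or sequences are given. Human plasmid genes were not analysed here, and some genes that meet these rules are not reported here.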

Additional observations from a re-analysis of the deposited data

Results flagged for a closer look

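The change from passage 15 to passage 25 had opposite signs in the lines for the following genes and lists, given as the log2 change in LSD1 minus that in FD2M1. Each line has 1 library per passage, so the difference between the lines was not tested. The difference was -3.07 for POU3F3, a neural POU factor, -2.80 for SLC16A11, -2.04 for ADM2 and -2.33 for ADCY1. It was 5.18 for CD82, 5.75 for ANKRD37, 3.54 for C7, 5.57 for AK4 and 3.41 for TMEM8C (MYMK). For the medians of the gene lists it was 1.65 for neuronal genes and 2.68 for skeletal muscle genes.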

How the results depend on the processing

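The count of DE genes was 0 in edgeR with TMM, RLE or library-size scaling and with every filter on levels. It was also 0 with no replicate block, that is, without line as the block that pairs the passages. Limma called 0 too, but it recovered 0 of the 200 changed genes in simulated counts. DESeq2 called 130, of which 82 were also at least 2-fold apart the same way in both lines (63.1% of its calls and 46.3% of the 177 such genes). With each library left out in turn and line left out of the model, 0 to 250 genes were called. The 250 (192 higher, 58 lower) came without FD2M1 at P25 and 22 without LSD1 at P25, and in such a fit the lone library of a passage is assumed to vary like the others. Genes at an unadjusted p under 0.05 numbered 1199, and 603 with no replicate block and 449 to 1500 with a library left out. With library size alone 46.2% of them were higher at P25, against 55.8% with TMM.

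Counts of genes at least 2-fold higher in both lines (134), lower in both (43), opposite (80), and apart in FD2M1 (763) became 83, 20, 38 and 498 with a pseudocount of 20. The first 3 became 84, 25 and 48 with an NRC of at least 20 in all 4 libraries. At 1.5-fold they were 405, 216, 336 and 2174, and 2831 in LSD1, and at 4-fold 10, 1, 3 and 79, and 154 in LSD1 (1089 at 2-fold).

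Of 65 named genes, 0 changed sign with RLE or DESeq2, and 39 passed the threshold in DESeq2. SOX2 was at -0.01 with no replicate block. With 1 library left out in turn, POU5F3 (LOC100022539) ran from -0.09 to 0.10, SOX2 from -0.30 to 0.34, LIN28A from -1.14 to 0.44, PODXL from -0.58 to 0.28, MYC from -0.31 to 0.10 and ANKRD1 from -0.21 (without LSD1 at P25) to 4.12. The cause was not tested. In these fits without line, 36 of the 65 had a value over 1.5 times apart from the one reported. With 1 library per line and passage, values within a line carry counting error and no measure of replicate error.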
